A study of Mus musculus with 20 samples.

Results

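Chromosome conformation was examined at the 5 breakpoints of 3 engineered alleles of the mouse *Lbx1*/*Fgf8* locus, in the windows where each allele parts or joins sequence. For every breakpoint the 50 kb on its centromeric side and the 50 kb on its telomeric side were taken, without the 5 kb bin that holds the breakpoint, and all bin pairs between sides that are neighbours in the reference order or become neighbours in *Dup*, *Inv1* or *Inv2* were collected. This gave 10 windows of 100 bin pairs by design, 5 in the reference order and 5 joined anew. Of these, 886 different bin pairs had values in all maps, out of 77028 in the captured map, and 45 of them belong to both the *Dup* and the centromeric *Inv2* junction window. Bins 45260001 to 45265000 and 45775001 to 45780000, which fell inside sides, were not usable in every map and were left out of all. The rule places the windows by breakpoint position alone.

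Capture Hi-C (cHi-C) counts read pairs that join DNA ends lying close together in fixed nuclei, enriched for a chosen stretch of the genome. The cHi-C maps came from fore- and hindlimb buds at E11.5, a mixture of cell types, in 6 genotypes. The groups were the wild-type (strain label c57bl6.J), homozygous *Dup*, *Inv1* and *Inv2* and heterozygous *Dup* and *Inv1*. All mutants descend from CRISPR/Cas9-edited G4 embryonic stem cells, a hybrid mouse line, through diploid or tetraploid aggregation, and founders were crossed to C57BL/6. The labels give G4 ESC as the background of every mutant, whereas the study's single-cell work describes the *Dup* line as C57Bl6. Where the backgrounds differ, strain and rearrangement cannot be told apart. *Dup* is a tandem duplication of 541.1 kb, *Inv1* an inversion of 123.1 kb and *Inv2* an inversion of 460.4 kb that shares its telomeric breakpoint with *Dup*. The wild-type and each homozygote merged 3 biological replicates and 1 technical replicate, heterozygous *Inv1* merged 3 biological replicates and heterozygous *Dup* was 1 library, whose genotype label names an inversion while its title names the duplication. Because the deposited maps merge replicates, there is 1 map per genotype and no test. Intervals are 95% counting intervals and cover counting error only. The maps held between 3350758 read pairs (heterozygous *Dup*) and 13101700 read pairs (homozygous *Dup*), and the wild-type held 7867931.

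Contact between loci on a chromosome falls with the distance between them, and topologically associating domains (TADs) add contact within a domain and reduce it across boundaries. *Lbx1*, a homeobox gene of migrating limb muscle precursors, and *Btrc*, whose product selects substrates for a ubiquitin ligase, share the centromeric TAD. *Fgf8*, a growth factor gene of the apical ectodermal ridge (AER), lies in the telomeric TAD, with most of its AER enhancers in introns of *Fbxw4*. An inversion or tandem duplication sets sequences side by side that were far apart, so its junctions show how contact forms when distance is changed and sequence is kept.

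The 5 breakpoints lie on chromosome 19 (mm9). The centromeric *Dup* breakpoint at 45251633 is intergenic between *Tlx1* and *Lbx1*, the centromeric *Inv2* breakpoint at 45332288 is intergenic between *Lbx1* and *Btrc*, and the centromeric *Inv1* breakpoint at 45611050 is intergenic between *Btrc* and *Poll*. The telomeric *Inv1* breakpoint at 45734101 lies in an intron of *Fbxw4*, and the telomeric breakpoint that *Dup* and *Inv2* share, at 45792725, is intergenic between *Fbxw4* and *Fgf8*. The reference sequence of the plus strand is shown for 25 bases on either side of each position, because these are the ends that the alleles part and rejoin. Capitals mark a PAM, the short motif Cas9 requires, at 3 bases from the position, as NGG on the plus strand or its complement CCN. At the centromeric *Dup* breakpoint both strands hold one.
Centromeric *Dup* breakpoint, chr19:45251609-45251658: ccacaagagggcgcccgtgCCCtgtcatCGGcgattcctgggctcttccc
Centromeric *Inv2* breakpoint, chr19:45332264-45332313: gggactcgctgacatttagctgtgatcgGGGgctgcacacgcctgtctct
Centromeric *Inv1* breakpoint, chr19:45611026-45611075: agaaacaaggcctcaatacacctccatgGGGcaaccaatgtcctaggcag
Telomeric *Inv1* breakpoint, chr19:45734077-45734126: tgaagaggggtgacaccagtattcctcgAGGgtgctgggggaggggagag
Shared telomeric breakpoint, chr19:45792701-45792750: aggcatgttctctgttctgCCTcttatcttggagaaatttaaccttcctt

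Joining these ends without loss or gain of a base would give the 5 junction sequences below, read in the direction of the plus strand of the flanks. Capitals mark the sequence that the allele moved or turned. They are built from the reference and were not read from the mutants.
*Dup* tandem junction: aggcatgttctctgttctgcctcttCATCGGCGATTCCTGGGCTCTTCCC
Centromeric *Inv1* junction: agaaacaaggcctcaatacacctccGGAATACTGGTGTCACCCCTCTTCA
Telomeric *Inv1* junction: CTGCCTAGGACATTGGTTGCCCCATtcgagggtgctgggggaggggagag
Centromeric *Inv2* junction: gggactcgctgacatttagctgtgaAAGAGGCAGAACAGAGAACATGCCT
Telomeric *Inv2* junction: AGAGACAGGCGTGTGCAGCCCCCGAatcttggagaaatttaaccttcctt

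Contact was highest, relative to the wild-type, at the breakpoints themselves. Among bin pairs 100 kb or more apart with at least 10 read pairs in the mutant and any in the wild-type, the pair with the highest ratio to the wild-type was the pair of breakpoint bins of the labelled allele in each of the 5 mutant maps. It held 34612 read pairs in homozygous *Dup* against 138 in the wild-type, 8718 in homozygous *Inv1* against 69, and 21718 in homozygous *Inv2* against 206. In heterozygous *Dup* it held 6118 read pairs and in heterozygous *Inv1* 3321. The ratios of normalised signal were 97.6, 43.7 and 54.0 in the 3 homozygotes, and 92.0 and 25.6 in heterozygous *Dup* and *Inv1*, with the *Dup* maps balanced to equal bin totals. With the higher totals of duplicated bins kept as deposited, the *Dup* ratios were 234.1 and 154.9. The library whose labels disagree thus had the highest pair at the *Dup* breakpoints, and its pair of *Inv1* breakpoint bins was at 1.24 (0.888 to 1.74) times the wild-type. These breakpoint bins enter none of the window values that follow.

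Windows whose order an inversion leaves unchanged show how far the maps differ where nothing was joined or parted. Over the 17 such windows of the 3 inversion maps, the ratio of mean contact to the wild-type ran from 0.923 to 1.21, with a median of 1.06. Across the 5 windows in the wild-type reference order, mean contact was 0.685 to 1.08 times that of all wild-type bin pairs at the same distances. The lowest was the window around the centromeric *Inv1* breakpoint, between the end of *Btrc* and the *Poll*/*Dpcd* boundary region, and the highest was the window around the telomeric *Inv1* breakpoint.

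**Figure D1:**
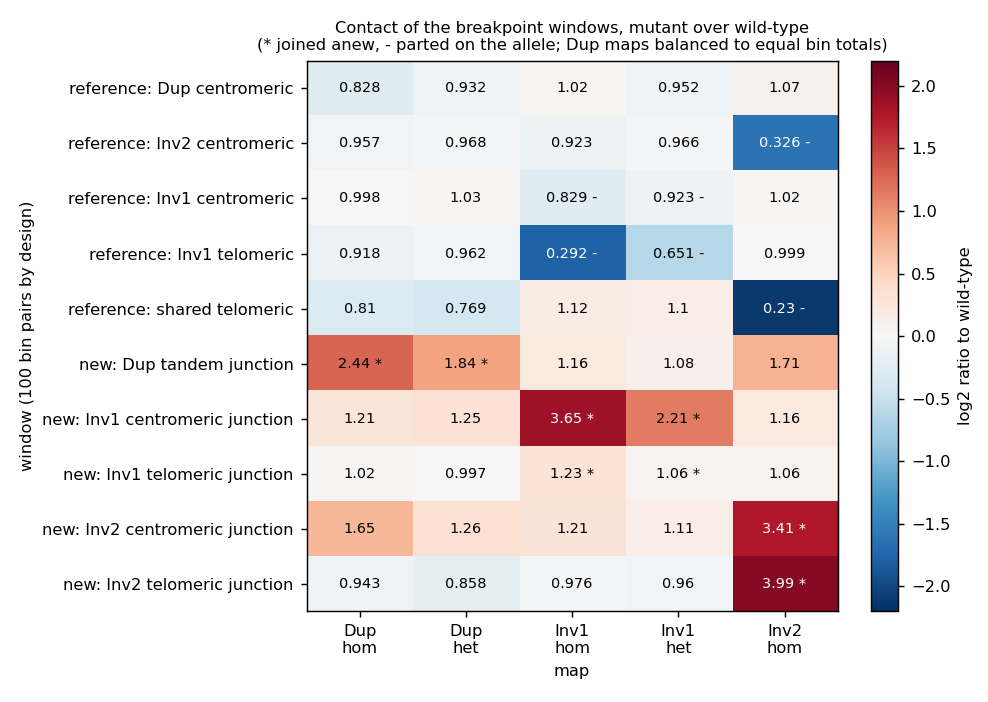
Ratio of mean contact to the wild-type in the 10 windows (rows) and 5 mutant maps (columns), with the colour on a log2 scale. Asterisks mark windows joined anew by the allele and hyphens those it parts; the highest ratios, 3.99 and 3.65, and the lowest, 0.230 and 0.292, are all at marked windows, and the 17 unchanged inversion windows lie between 0.923 and 1.21.

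At the centromeric *Inv1* junction, the end of *Btrc* came to lie beside the *Fbxw4* introns that hold the AER enhancers, and contact rose in nearly the whole window. Mean scaled signal, the normalised contact per bin pair with each mutant map brought to the wild-type level outside its rearrangement, was 12.9 in the wild-type, 28.6 in heterozygous *Inv1* and 47.1 in homozygous *Inv1*, while it was 14.9 in homozygous *Inv2*, which turns both sides together. The homozygous map lay highest and the heterozygous map between it and the wild-type. The ratio to the wild-type was 3.65 (3.57 to 3.72) in the homozygote and 2.21 (2.16 to 2.27) in the heterozygote. Of the 100 bin pairs, 99 were at least 2-fold higher in the homozygote, against 4.13% of the 72558 bin pairs of that map compared in the same way, and 58 of 100 in the heterozygote, against 3.51%. The lowest bin pair of the window stood at 1.80 times the wild-type and the highest at 12.7 times.

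Distance alone, with the wild-type decay, would place this window at 2.21 times the wild-type. Contact in homozygous *Inv1* was 1.08 (1.07 to 1.08) times the level expected at the new distances of 10.2 to 100.2 kb. This ratio was 0.920 (0.902 to 0.938) for bin pairs less than 30 kb apart and 1.22 (1.20 to 1.24) for those of 70 kb and more, so with sides of 25 kb it was 0.963. The slope of log2 contact on log2 distance was −0.70 ± 0.02 (SE of the fit over 100 bin pairs, weighted by read pairs), with an r2 of 0.970. In the wild-type the same slope was −0.94 ± 0.05 for the window around the centromeric *Inv1* breakpoint and −0.69 ± 0.02 for the one around the telomeric breakpoint. Along the enhancer side, the ratio was 6.33 (5.91 to 6.78) in the bin next to the breakpoint and 2.34 (2.16 to 2.54) in the bin at the far end.

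The other end of *Inv1* gained less. At the telomeric junction the turned side with *Poll*, which encodes a DNA polymerase, and *Dpcd* came to lie beside the stretch between *Fbxw4* and *Fgf8*. Mean signal was 25.4 in the wild-type, 26.9 in heterozygous *Inv1* and 31.3 in homozygous *Inv1*. The homozygous ratio of 1.23 (1.21 to 1.26) was little above the 1.21 reached by windows in unchanged order, although the decay expects 2.27. Contact was 0.686 (0.679 to 0.693) times the expected level, and stood between 0.674 and 0.696 in every distance band from under 30 kb to 70 kb and more. Of 90 bin pairs, 20 were at least 2-fold higher and 7 at least 2-fold lower, against 4.13% and 2.85% of the map. The slope was −0.87 ± 0.04.

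The window mean hides opposite values along the *Poll* and *Dpcd* side. The bin next to the breakpoint, at 45615001 to 45620000, contacted the far side of the telomeric breakpoint at 3.71 (3.40 to 4.04) times the wild-type level, and the *Poll* bin at 45625001 had 2.05 (1.93 to 2.18) times. The ratio was 0.937 (0.891 to 0.985) in the *Dpcd* bin at 45640001 and 0.515 (0.481 to 0.552) in the last bin of the side, at 45660001, inside *Fbxw4*. The decay expected 1.23 there. The direction of the mean therefore depended on the width, with ratios of 2.57 for sides of 25 kb and 0.688 for sides of 100 kb, and 0.960 without 1 more bin on either side.

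The parted window at the centromeric *Inv1* breakpoint showed the opposite order along the same side. Its bin pairs moved from 10 to 100 kb in the reference to 75.2 to 165.2 kb on the inverted allele. Mean signal was 30.1 in the wild-type, 27.8 in heterozygous *Inv1* and 24.96 in homozygous *Inv1*, a ratio of 0.829 (0.815 to 0.843) where distance expects 0.451. Contact in the homozygote was 1.26 (1.24 to 1.27) times the expected level, against 0.685 times in the wild-type at the reference distances. Of 100 bin pairs, 8 were at least 2-fold higher and 19 at least 2-fold lower, against 4.13% and 2.85% of the map. Next to the breakpoint, contact with *Btrc* fell to 0.258 (0.241 to 0.276) in the bin at 45615001. It was 0.932 (0.882 to 0.986) in the bin of the *Poll* and *Dpcd* starts at 45635001 and 1.86 (1.74 to 1.99) in the *Fbxw4* bin at 45655001, where distance expects 0.736. That *Fbxw4* bin stood at 1.45 times the expected level, against 0.575 times in the wild-type at the reference distances. Contact between *Btrc* and the end of *Fbxw4* was thus higher than in the wild-type although these sequences lay farther apart. The heterozygous map, from other libraries, gave ratios to the wild-type of 0.608 (0.577 to 0.640), 0.985 (0.927 to 1.05) and 1.44 (1.34 to 1.55) in the same 3 bins. With sides of 100 kb the homozygous ratio of the window was 1.45, and it was 1.13 without 1 more bin on either side.

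**Figure D2:**
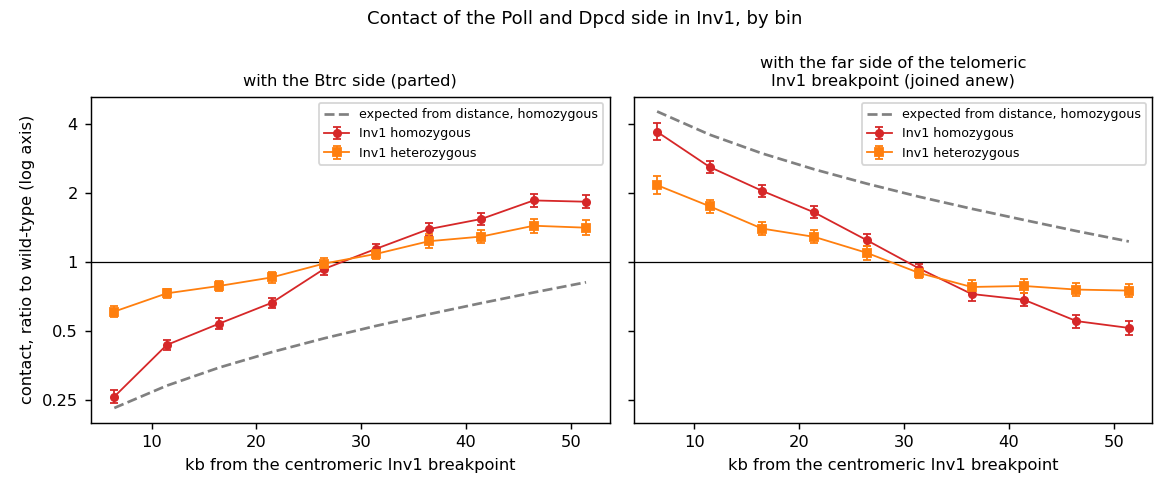
Contact of the 10 bins telomeric of the centromeric *Inv1* breakpoint (x axis, kb from the breakpoint) with the *Btrc* side, from which they are parted (left), and with the far side of the telomeric breakpoint, to which they are joined (right), as ratio to the wild-type on a log axis with 95% counting intervals. In the homozygote the left panel climbs from 0.258 to 1.86 and the right panel falls from 3.71 to 0.515, while the dashed line shows what distance alone gives.

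At the telomeric *Inv1* breakpoint, where the *Fbxw4* introns were parted from the stretch leading to *Fgf8*, contact fell below the distance expectation. Mean signal was 49.0 in the wild-type, 31.9 in heterozygous *Inv1* and 14.3 in homozygous *Inv1*. The homozygous ratio was 0.292 (0.286 to 0.298) against an expected 0.442, which is 0.710 (0.699 to 0.722) times the level of the decay. Of 90 bin pairs, 88 were at least 2-fold lower, against 2.85% of the map, and in heterozygous *Inv1* 1 of 90 was, against 3.73%. In the homozygote none was above 0.560 times the wild-type. On the enhancer side the ratio ran from 0.185 (0.174 to 0.196) next to the breakpoint to 0.443 (0.410 to 0.479) at the far end.

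Both *Inv2* junctions gained contact over distances of 10 to 100 kb, where the wild-type distances are 415 to 505 kb. At the centromeric junction the *Lbx1* side met the stretch between *Fbxw4* and *Fgf8*. Mean signal was 10.5 in the wild-type, 35.8 in homozygous *Inv2*, 12.7 in homozygous *Inv1* and 11.7 in heterozygous *Inv1*, so the *Inv2* map stood alone among the inversion maps. The ratio was 3.41 (3.32 to 3.503), and 61 of 90 bin pairs were at least 2-fold higher, against 5.42% of 72376 in the map. At the telomeric junction the stretch between *Lbx1* and *Btrc* met the *Fgf8* side, which also holds *Npm3*, encoding a nucleoplasmin family protein, and the end of *Mgea5*, encoding O-GlcNAcase. Mean signal was 8.47 in the wild-type and 33.8 in homozygous *Inv2*, and 8.27 and 8.13 in homozygous and heterozygous *Inv1*. The ratio was 3.99 (3.90 to 4.08), and 98 of 100 bin pairs were at least 2-fold higher.

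The gains were smaller than the wild-type decay over the whole map gives. The decay expects 8.32 and 8.54 times the wild-type, and contact was 0.832 (0.824 to 0.840) and 0.768 (0.763 to 0.774) times the expected level. The intact wild-type windows around the same breakpoints were also below this decay, at 0.907 and 0.909 times. With the decay of the reference windows in its place, the junctions were at 0.917 and 0.846 times. The wild-type level of these bin pairs was itself 2.03 and 1.65 times the mean of the map at 415 to 505 kb, which lowers a ratio to the wild-type but does not enter the comparison with distance. The slopes were −0.80 ± 0.08 and −0.93 ± 0.07.

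On the *Lbx1* and *Fgf8* sides, contact against the distance expectation was lower away from the breakpoint. On the sides opposite them it was lowest in the bin next to the breakpoint. On the *Lbx1* side it was 1.02 in the bin next to the breakpoint, 0.884 and 0.747 in the *Lbx1* bins at 45310001 and 45305001, and 0.571 to 0.728 in the 4 bins at the far end. On the *Fgf8* side it stood between 0.853 and 0.908 from the breakpoint to the *Fgf8* bins at 45810001 and 45815001. It was 0.764 in the *Npm3* bin at 45820001, 0.585 at 45825001 and 0.465 in the *Mgea5* bin at 45835001. The wild-type also had less contact at these far bins of the *Fgf8* side. For the same bin pairs at their reference distance it had 1.92 times the map mean in the *Fgf8* bin at 45810001 and 1.192 times at 45835001, and across the intact breakpoint 1.14 and 0.589 times. On the *Lbx1* side the same bin pairs ran the other way in the wild-type, at 1.76 times next to the breakpoint and 2.26 to 2.59 times in the 4 far bins. Across the intact breakpoint the wild-type had 1.06 times and 0.655 to 0.911 times in these bins. Contact of the *Fgf8* bin at 45810001 with the stretch between *Lbx1* and *Btrc* was 4.07 (3.82 to 4.34) times that of the wild-type, and contact of the bin at 45835001 was 2.42 (2.22 to 2.64) times. On the side between *Lbx1* and *Btrc*, contact over expected was 0.657 next to the breakpoint, 0.911 at 45375001 and 0.776 in the last bin. On the side between *Fbxw4* and *Fgf8* it was 0.510 next to the breakpoint, 1.10 at 45750001 and 0.972 in the last bin.

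**Figure D3:**
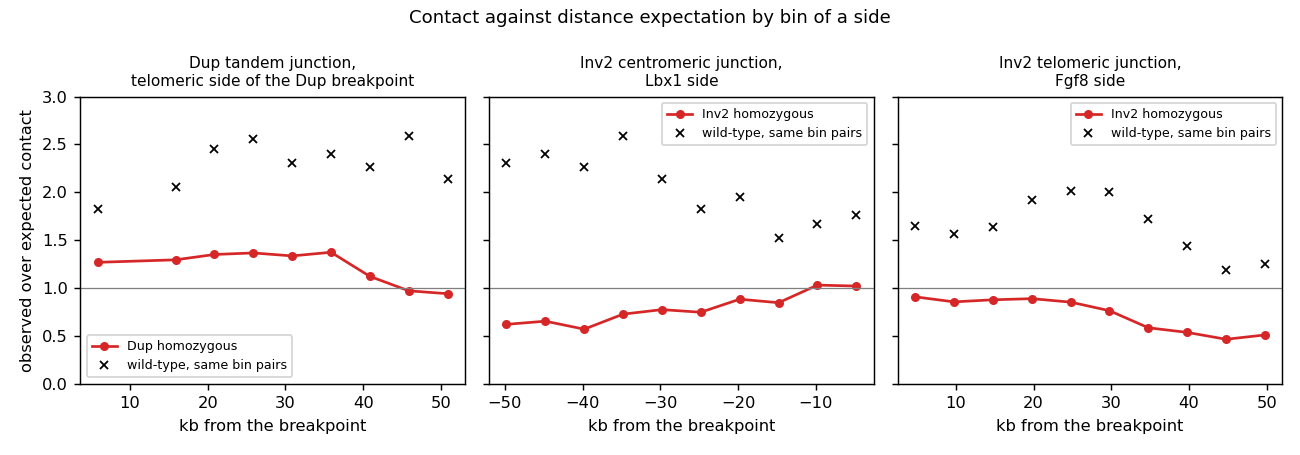
Observed over expected contact, given the distance on the allele, for each bin of a side with the whole opposite side (y axis) against kb from the breakpoint, in homozygous *Dup* or *Inv2* (red) and for the same bin pairs at their reference distance in the wild-type (black crosses). On the *Fgf8* side the red line lies at 0.853 to 0.908 as far as *Fgf8* and falls to 0.465 beyond it, where the wild-type falls from 2.02 to 1.192, and in *Dup* it falls from 1.37 to 0.941.

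The windows that *Inv2* parts kept more contact than distance gives. Between the *Lbx1* side and the stretch leading to *Btrc*, mean signal was 39.9 in the wild-type and 13.0 in homozygous *Inv2*, a ratio of 0.326 (0.321 to 0.332) against an expected 0.117. Between the stretch beyond *Fbxw4* and the *Fgf8* side it was 39.1 and 8.98, a ratio of 0.230 (0.224 to 0.235) against 0.120. Of 100 and 90 bin pairs, 64 and 89 were at least 2-fold lower, against 3.68% of the map. The bin at 45290001, on the centromeric side of *Lbx1*, kept 0.758 (0.721 to 0.797) times its wild-type contact with the far side, whereas the bin next to the breakpoint kept 0.132 (0.125 to 0.140). Contact in the parted windows was 2.53 (2.49 to 2.56) and 1.74 (1.70 to 1.77) times the map mean at the new distances of 415 to 505 kb.

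The *Dup* tandem junction joins the stretch between *Fbxw4* and *Fgf8* to the stretch between *Tlx1*, a homeobox gene, and *Lbx1* and neither side holds an annotated gene. The *Dup* maps carry a copy number correction (LOIC), in which duplicated bins keep a higher total, so ratios are given with the copies kept and after balancing all bins to equal totals. With the copies kept, mean signal was 11.1 in the wild-type, 34.4 in heterozygous *Dup* and 63.9 in homozygous *Dup*, and 12.9 in homozygous *Inv1*. The ratio was 5.74 (5.57 to 5.93) in the homozygote and 3.09 (2.96 to 3.22) in the heterozygote. After balancing these were 2.44 (2.37 to 2.52) and 1.84 (1.76 to 1.92). Of 81 bin pairs, 53 were at least 2-fold higher in the balanced homozygous map, against 7.2% of 69790, and 27 in the heterozygous map, against 6.28%. In neither map was any of them 2-fold lower, against 2.13% and 5.83%.

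Summed over the copies, distance expects 10.6 times the wild-type at this junction, and contact in homozygous *Dup* was 1.24 (1.23 to 1.26) times the expected level, where *Inv1* and *Inv2* junctions ranged from 0.686 to 1.08. In heterozygous *Dup* it was 1.22 (1.185 to 1.26). The slope on distance was −0.59 ± 0.07 with an r2 of 0.485. Next to the breakpoint, the bin at 45255001 had, with the copies kept, 12.2 (9.56 to 15.5) times the wild-type contact. Along that side, contact stood between 1.27 and 1.37 times the expectation as far as 45290000, was 1.12 in the next bin and 0.971 and 0.941 in the last 2 bins, which end at 45305000. On the other side the bin next to the breakpoint, at 45785001, was the lowest, at 0.780 in *Dup*. The same bin was also the lowest of its side at the centromeric *Inv2* junction, at 0.510, and had 0.527 times the expected contact across the intact breakpoint in the wild-type.

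**Figure D4:**
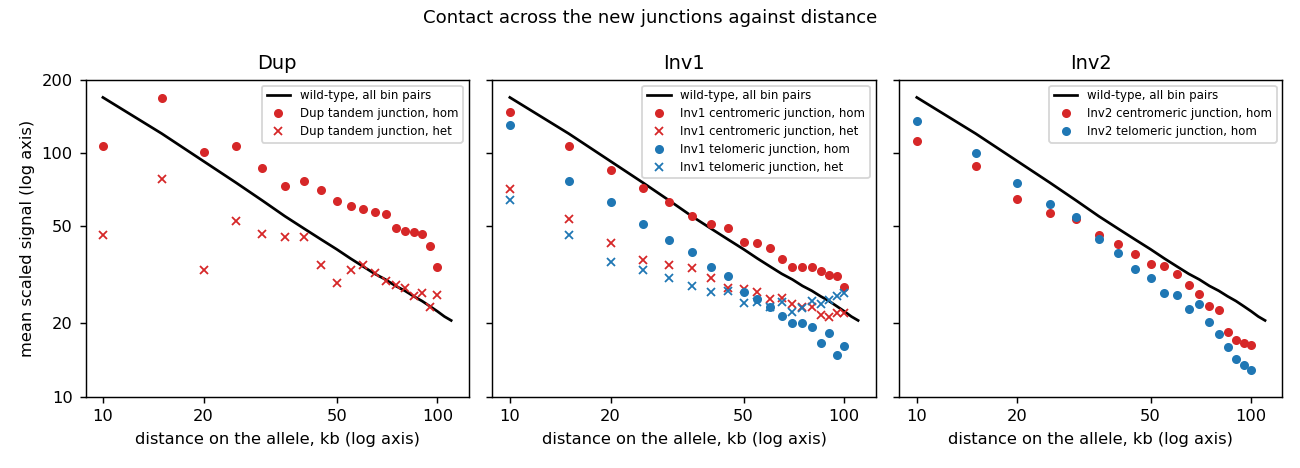
Mean scaled signal across each new junction (y axis, log) against distance on the rearranged allele (x axis, log) in homozygous (circles) and heterozygous (crosses) maps, with the mean of all wild-type bin pairs as a line. The *Dup* values keep their copy number and the line is for 1 copy; the homozygous centromeric *Inv1* junction crosses the line, from 0.920 times the expected level under 30 kb to 1.22 times at 70 kb and more, and the homozygous telomeric *Inv1* junction lies below it, at 0.686 times.

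Contact across a junction can also be set against contact inside its own sides at the same distances, which needs no decay from elsewhere. In the wild-type this across-to-within ratio was 1.12, 1.24, 0.828, 0.794 and 0.947 for the 5 breakpoints from centromeric to telomeric. At the *Inv1* junctions it was 0.892 (0.881 to 0.905) and 0.778 (0.766 to 0.790), and at the *Inv2* junctions 0.892 (0.877 to 0.908) and 1.08 (1.06 to 1.09). The telomeric *Inv1* value lay just under the wild-type range of 0.794 to 1.24, and the other 3 lay inside it. At the *Dup* junction it was 0.654 (0.637 to 0.672), where 1 of the copies inside the sides is not next to the junction and the decay expects 0.512.

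Windows that an allele brings nearer without joining them also gained contact. In homozygous *Inv2* the *Dup* junction window, whose bin pairs lay 35.0 to 125 kb apart on that allele, was at 1.71 times the wild-type, with 0.659 times the expected level. In homozygous *Dup* the centromeric *Inv2* window, at 36.1 to 126 kb, was at 1.65 times after balancing, with 1.00 times the expected level. These windows share 45 bin pairs.

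The share of rearranged contact in a heterozygous map was fitted as the weight of the homozygous map in a mixture of the homozygous and the wild-type map, over the bin pairs of each window. With 1 rearranged and 1 intact allele of equal contact this weight would be 50%. New contact in heterozygous *Inv1* gave 43.9% (42.4 to 45.5) at the centromeric and 44.4% (41.5 to 47.2) at the telomeric junction. Lost contact gave 49.8% (46.6 to 53.0) and 47.7% (45.7 to 49.8) at the same breakpoints. The *Dup* junction gave 43.5% (40.7 to 46.3) in the single heterozygous *Dup* library, and 58.3% after balancing. The first value rests on the bin totals that LOIC set inside the duplication, 1.5 times those outside in the heterozygous and 2 times in the homozygous map, and no source used here states the copy number entered for the heterozygote. At the new *Inv1* junctions the weight was 50.9% and 51.3% when maps were scaled to the same total only, without scaling each distance, so under this scaling they were not below 50%.

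**Figure D5:**
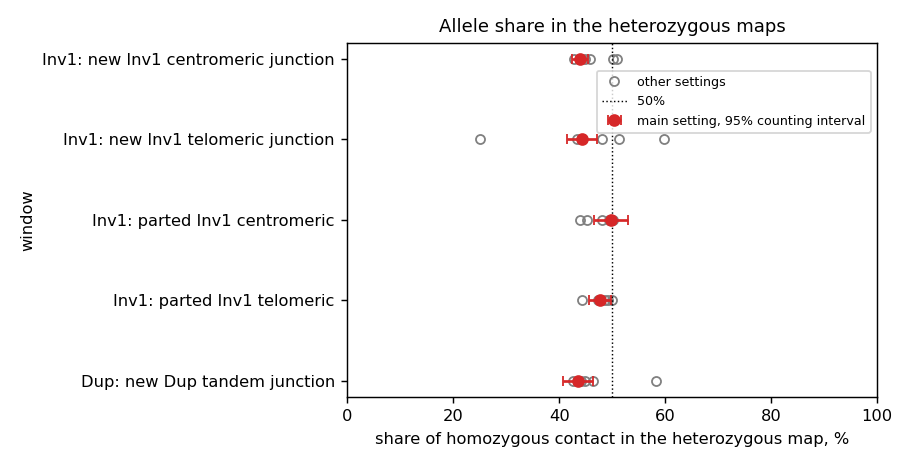
Weight of the homozygous map in the heterozygous map, in percent (x axis), for each window that the allele joins or parts, with the 95% counting interval (red) and the other processing settings (grey). The 5 main values lie between 43.5% and 49.8%, and the settings of the telomeric *Inv1* junction spread from 25.04% to 59.7%.

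The bin pairs nearest to a parted breakpoint are where any unrearranged allele in a homozygous map would show most. In the 3 bins on either side, contact in homozygous *Inv2* was 0.105 (0.0988 to 0.111) times the wild-type at its centromeric and 0.106 (0.0969 to 0.116) at its telomeric breakpoint, where distance expects 0.0509 and 0.0452. In homozygous *Inv1* it was 0.259 (0.246 to 0.272) and 0.163 (0.154 to 0.173), where distance expects 0.193 at both. The single bin pairs flanking the breakpoints were at 0.0600 and 0.0734 in *Inv2* and at 0.137 and 0.122 in *Inv1*. All of these values include the contact over the new distance. In the 3 bins, contact was 1.92 and 1.79 times the expected level in homozygous *Inv2* and 0.958 and 0.779 times in homozygous *Inv1*. The wild-type also departed from the decay between these ends at their distant reference positions. There the bins that *Inv2* joins were at 1.47 and 1.77 times, and those that *Inv1* joins at 0.687 and 0.882 times. Whether any unrearranged allele was left was not tested.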

How the data were processed

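The 6 maps hold contact signal that the authors deposited after mapping reads to mm9 with HiCUP and Bowtie2 2.4.2, merging replicates, binning at 5 kb and normalising with Juicer tools 1.19.02 (KR, equal bin totals; wild-type and inversions) or LOIC (*Dup*). The mapping used the reference order in every genotype. The other 3 deposited maps hold the authors' own subtractions and were not used. Read pairs were recovered by dividing out the bin factors, and 100% of values came out whole within 0.01. They set the counting intervals. Each mutant was scaled to the wild-type at each distance outside its rearranged interval; *Dup* maps were balanced for ratios and kept as deposited for distance fits and shares. Expected contact is the wild-type mean at the distances on the allele, summed over copies. Fold calls used bin pairs at least 2 bins apart with 10 or more read pairs in the 2 maps together. All annotated genes overlapping a side were listed, and the protein-coding ones named (GENCODE on mm9). The windows and lists were chosen with earlier results of these data known. The alternatives were the side width, the scaling, read pairs, another decay, the bins left out, the weighting and the call limits. On simulated maps 23 of 23 values came within 10% of those set. Computation used numpy 2.4.6 and scipy 1.17.1 under Python 3.11.15, and plots matplotlib 3.10.9.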

Additional observations from a re-analysis of the deposited data

How the results depend on the processing

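Of 144 values under alternative settings, 21 stayed within the main counting interval (counts within 1.5 times), 117 moved beyond it and 6 changed side. Taking each homozygote's windows together, the main ratios were 2.44 (*Dup*, new), 2.10 and 0.510 (*Inv1*, new and lost) and 3.68 and 0.281 (*Inv2*). Sides of 25 kb gave 3.79, 3.68, 0.286, 6.46 and 0.1525, and sides of 100 kb 1.77, 1.18, 0.830, 2.37 and 0.411. Leaving out 1 more bin on either side gave 2.06, 1.73, 0.6445, 2.94 and 0.344. Read pairs gave 4.79, 2.48, 0.584, 4.50 and 0.305. Scaling to the total only gave 2.27 and 0.544 for *Inv1* and 4.08 and 0.285 for *Inv2*, and the *Dup* ratio with copies kept was 5.74. The ratio of the telomeric *Inv1* junction turned to 0.688 with sides of 100 kb and 0.960 with 1 more bin left out, and that of the parted centromeric *Inv1* window to 1.45 and 1.13. Contact over expected was 1.24 (*Dup*), 0.887 (*Inv1*) and 0.798 (*Inv2*). With each map's own flank decay it was 1.105, 0.860 and 0.778, with the decay of the reference windows 1.37, 1.015 and 0.879, with 25 kb 1.191 (*Dup*) and 0.822 (*Inv1*), and with 100 kb 1.12, 0.985 and 0.723. The centromeric *Inv1* junction alone turned from 1.08 to 0.963 with 25 kb. Across-to-within contact moved with 25 kb from 0.654 to 0.477 (*Dup*) and from 0.985 to 0.823 (*Inv2*). The heterozygous share at new *Inv1* windows was 44.0%, and 52.4% with read pairs, 51.0% with total scaling and 46.2% with 100 kb. At lost *Inv1* windows it was 48.3%, and 45.95% with total scaling. At the *Dup* window it was 43.5%, and 46.5% with total scaling and 58.3% after balancing. Contact next to the parted breakpoints was 0.205 (*Inv1*) and 0.105 (*Inv2*), and 0.129 and 0.0653 in the single bin pair. Bin pairs called higher and lower over the map were 5028 and 1488 (*Dup*), 3000 and 2069 (*Inv1*) and 3923 and 2661 (*Inv2*). With 50 read pairs these were 764 and 123, 696 and 468, and 1480 and 754, and at 1.5-fold 12772 and 4591, 8435 and 7307, and 10036 and 8440. The cause of these shifts was not tested.

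No paired analysis was possible because the deposited maps merge the replicates, and for the same reason leaving out replicates was not possible. The median bin pair held 11 read pairs in heterozygous *Dup* and 21 in the wild-type, so single bin pairs are imprecise there.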

Other observations

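The window around the shared telomeric breakpoint keeps its reference order on the *Dup* allele, with the *Fgf8* side following the second copy. With the copies kept, its contact was 1.11 (1.09 to 1.12) times the wild-type in homozygous *Dup* and 0.944 (0.917 to 0.972) times in heterozygous *Dup*, so the heterozygote lay outside the range of the other 2 genotypes. Scaled to the same total only these ratios were 1.13 and 0.870, and from read pairs 1.191 and 0.605. In the 6 bin pairs with values nearest to the breakpoint these ratios were 1.00 (0.960 to 1.05) and 0.659 (0.599 to 0.725), the latter from 491 read pairs. Heterozygous *Dup* was a single library, and no second library was analysed here.

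For the pair of breakpoint bins itself, which the windows leave out, the homozygous map had a weight of 66.0% (64.2 to 67.8) in heterozygous *Dup* and 57.6% (55.2 to 60.0) in heterozygous *Inv1*, against 43.5% to 49.8% in the windows.

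The pair of *Dup* breakpoint bins was at 1.49 (1.22 to 1.81) times the wild-type in homozygous *Inv2*, which brings these bins nearer, and at 1.03 (0.836 to 1.28) times in homozygous *Inv1*, which leaves their distance unchanged.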
